A study of Mus musculus with 35 samples.

Results

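The genes described here are 10 mouse genes of late neutrophil maturation: Ltf, Camp, Ngp, Lcn2, Mmp8, Mmp9, S100a8, S100a9, Chil3 and Cd177. They were chosen by name, as the rows of the deposited count table that carry these symbols, 10 of 49671 genes, a rule that uses no measured value. The names themselves were picked with earlier results of these data known. RNA was sequenced from mouse lineage-negative (lin-) bone marrow cells, a population enriched for hematopoietic stem and progenitor cells (HSPCs), that carried an empty lentiviral vector or 1 of 6 forms of NUP98-HOXA9. NUP98-HOXA9 is a leukemia fusion protein that joins the phenylalanine-glycine (FG) repeat part of the nucleoporin NUP98 to the DNA-binding homeodomain of HOXA9, and it was tagged with the green fluorescent protein mEGFP (the prefix G). The study asked how the FG repeats and the DNA-binding domain of the fusion bear on the condensates it forms and on the genes it turns on in blood progenitors.

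There were 7 groups of 5 libraries, 35 in all, and each group name is given as on the labels, which write NHX9 for the fusion. Empty received the vector alone, G-NHX9 the intact fusion, and G-NHX9-8FA a fusion in which phenylalanines of FG motifs were replaced by alanine. In G-NHX9-21FGAA both residues of FG pairs were replaced by alanine. The replaced residues of G-NHX9-8FA and of G-NHX9-21FGAA lie in the C-terminal stretch of the NUP98 part. G-NHX9-midi is a shortened fusion that keeps that C-terminal stretch, G-NHX9-midi-21FGAA carries the FG replacements in the shortened form, and G-NHX9-DDNA has a homeodomain mutated to weaken its hold on DNA. All cells came from C57Bl/6 mice of both sexes, aged 8 weeks except for replicate 4 of Empty (9 weeks), replicate 5 of Empty (10 weeks) and replicate 1 of G-NHX9 (11 weeks). Every group, Empty included, was transduced with the reagent Lentiboost in liquid medium holding SCF, Flt3 ligand and the interleukins IL-3, IL-6 and IL-7, kept in culture for 2 days, sorted by flow cytometry (mCherry-positive for Empty, mCherry- and mEGFP-positive for the fusions) and grown for 1 week in semisolid medium with myeloid and erythroid growth factors and 10 ng/mL GM-CSF. The cells are a first plating of a mixed culture in which the vector, not the fusion's own locus, drives expression. Libraries of different ages within Empty and within G-NHX9 came from different animals. The labels do not say whether libraries of the same age in a group did. The p-values below therefore measure the spread between these libraries, part of which may be technical.

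Neutrophils load their granules in order as they mature. Myeloid progenitors and promyelocytes make the primary granule proteases, myelocytes and metamyelocytes switch these off and make the secondary granule proteins, and later cells make tertiary, gelatinase-rich granules. Ltf encodes lactoferrin, which binds iron. Camp encodes the cathelicidin antimicrobial peptide precursor and Ngp a neutrophil granule protein of the same cystatin-like family. Lcn2 encodes lipocalin 2, which captures bacterial siderophores, Mmp8 the neutrophil collagenase and Mmp9 gelatinase B. S100a8 and S100a9 encode the calcium-binding subunits of calprotectin, an abundant complex of the neutrophil cytosol. Chil3 encodes Ym1, a chitinase-like lectin made by neutrophil precursors and also by alternatively activated macrophages, and Cd177 a surface protein of neutrophils. Granulocytic C/EBP factors, Cebpe among them, are known activators of secondary granule genes.

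Total counts per library ran from 31559914 to 75810659, and counts are given as CPM, counts divided by the library's total and edgeR's TMM factor, in the usual CPM unit. At the shallowest library 3 counts, the limit that a count of 0 allows, corresponded to 0.0996 CPM, far under the level of each of the 10 genes. All 10 genes passed the filter on low counts, which kept 17166 genes for testing. Differences are log2 fold changes ± standard error from edgeR's quasi-likelihood test over all 35 libraries, called at a Benjamini-Hochberg adjusted p under 0.05 over all tested genes. The 6 comparisons with Empty share the 5 Empty libraries, and the 4 comparisons with G-NHX9 share the 5 G-NHX9 libraries, so values from them are set side by side and are not independent. The 5 values of a group are given in the order of its replicate numbers, which is not an order in time or dose.

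The 10 genes lie on 4 chromosomes in the GENCODE M21 annotation of GRCm38 (mm10), and none overlaps another gene. Calprotectin's subunits are neighbours on chromosome 3, S100a8 at chr3:90668978-90670035 on the plus strand and S100a9 at chr3:90692632-90695721 on the minus strand, 22597 bases apart. Chil3 is on the same chromosome at chr3:106147554-106167564, on the minus strand. Chromosome 9 holds Mmp8 (chr9:7558456-7568485, plus), Camp (chr9:109847379-109849617, minus), Ngp (chr9:110419747-110423012, plus) and Ltf (chr9:111019271-111042767, plus). Lcn2 (chr2:32384633-32388252, minus) and Mmp9 (chr2:164940780-164955850, plus) are on chromosome 2, and Cd177 (chr7:24743983-24760311, minus) is on chromosome 7.

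The DNA just upstream of 5 of these genes is shown because their transcripts moved in different ways between the constructs: S100a8 and S100a9 together, Chil3 and Mmp8 each apart from the rest, and Ltf with or against them depending on the construct. The bases are those before the RefSeq start in GRCm38.p6, up to 250 of them, on the strand of the gene and from 5′ to 3′, without bases that GENCODE M21 counts as transcribed. Capitals mark matches, on either strand, to a C/EBP motif (TTGCNNAA) or a HOX-PBX motif (TGATTNAT), where N is any base, or to an ETS motif (GAGGAA).

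S100a8 (chr3:90668821-90668977, strand plus): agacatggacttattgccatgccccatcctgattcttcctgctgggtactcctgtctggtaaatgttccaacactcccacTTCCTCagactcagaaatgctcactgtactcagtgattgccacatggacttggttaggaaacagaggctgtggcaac
S100a9 (chr3:90695722-90695971, strand minus): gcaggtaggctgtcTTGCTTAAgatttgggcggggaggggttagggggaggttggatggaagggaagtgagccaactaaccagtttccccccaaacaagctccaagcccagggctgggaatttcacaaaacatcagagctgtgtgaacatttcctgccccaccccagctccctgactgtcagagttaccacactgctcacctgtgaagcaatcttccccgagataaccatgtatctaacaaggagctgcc
Chil3 (chr3:106167565-106167814, strand minus): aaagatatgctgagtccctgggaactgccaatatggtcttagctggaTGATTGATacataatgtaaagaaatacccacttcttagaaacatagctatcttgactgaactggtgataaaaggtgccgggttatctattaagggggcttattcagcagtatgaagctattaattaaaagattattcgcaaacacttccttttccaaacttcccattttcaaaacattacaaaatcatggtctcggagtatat
Mmp8 (chr9:7558179-7558428, strand plus): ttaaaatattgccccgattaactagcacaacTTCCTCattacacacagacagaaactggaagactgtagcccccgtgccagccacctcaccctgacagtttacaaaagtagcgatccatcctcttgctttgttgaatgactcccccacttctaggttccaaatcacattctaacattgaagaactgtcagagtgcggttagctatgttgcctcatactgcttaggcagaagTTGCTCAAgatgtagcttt
Ltf (chr9:111019042-111019270, strand plus): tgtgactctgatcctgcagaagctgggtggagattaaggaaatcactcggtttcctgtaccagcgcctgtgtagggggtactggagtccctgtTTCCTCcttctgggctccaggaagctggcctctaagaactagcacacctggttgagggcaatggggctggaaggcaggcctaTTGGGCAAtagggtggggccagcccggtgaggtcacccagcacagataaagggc

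RefSeq upstream sequences were matched for 9 of the 10 genes. Over the whole 250 bases, 5 of these 9 held a C/EBP match (Ltf, Ngp, Lcn2, Mmp8 and S100a9), against 9.56% of 32851 mouse promoters. An ETS match was present in 5 of 9 (Ltf, Lcn2, Mmp8, S100a8 and Cd177), against 23.3% of promoters, and the letters TATAAA, a core promoter element searched in the same way, in 2 of 9 (S100a8 and Cd177), against 12.4%. Those of S100a8, from -30 to -25, lie beside a further ETS match in the part left out above. Only Chil3 of the 9 held a HOX-PBX match, from base -203 to -196 relative to the RefSeq start, against 2.82% of promoters. The C/EBP match of Ltf lay from -75 to -68, that of Mmp8 from -19 to -12 and that of S100a9 from -236 to -229. The ETS match printed for S100a8 lay from -170 to -165, those of Ltf and Mmp8 from -157 to -152 and from -219 to -214. A match describes the letters only and does not show that a factor binds there.

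Per kilobase of exon, calprotectin and Chil3 were the most abundant of the 10 transcripts in Empty. S100a9 stood at 7688 ± 1179 CPM per kilobase (mean ± SD, n = 5), Chil3 at 6384 ± 2445 and S100a8 at 4453 ± 719. Ngp (1047 ± 276) and Mmp8 (743 ± 28.6) followed on the same per-kilobase scale. Ltf (234 ± 57.9), Camp (180.3 ± 45) and Lcn2 (126 ± 19.9) were lower, then Cd177 (48.9 ± 15.5), and Mmp9 was lowest at 6.33 ± 1.37. Within 1 SD, S100a9 overlapped Chil3, Chil3 overlapped S100a8, Ngp overlapped Mmp8, and Camp overlapped both Ltf and Lcn2. Group means and SDs alone therefore do not settle the order of those neighbours.

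**Figure D1:**
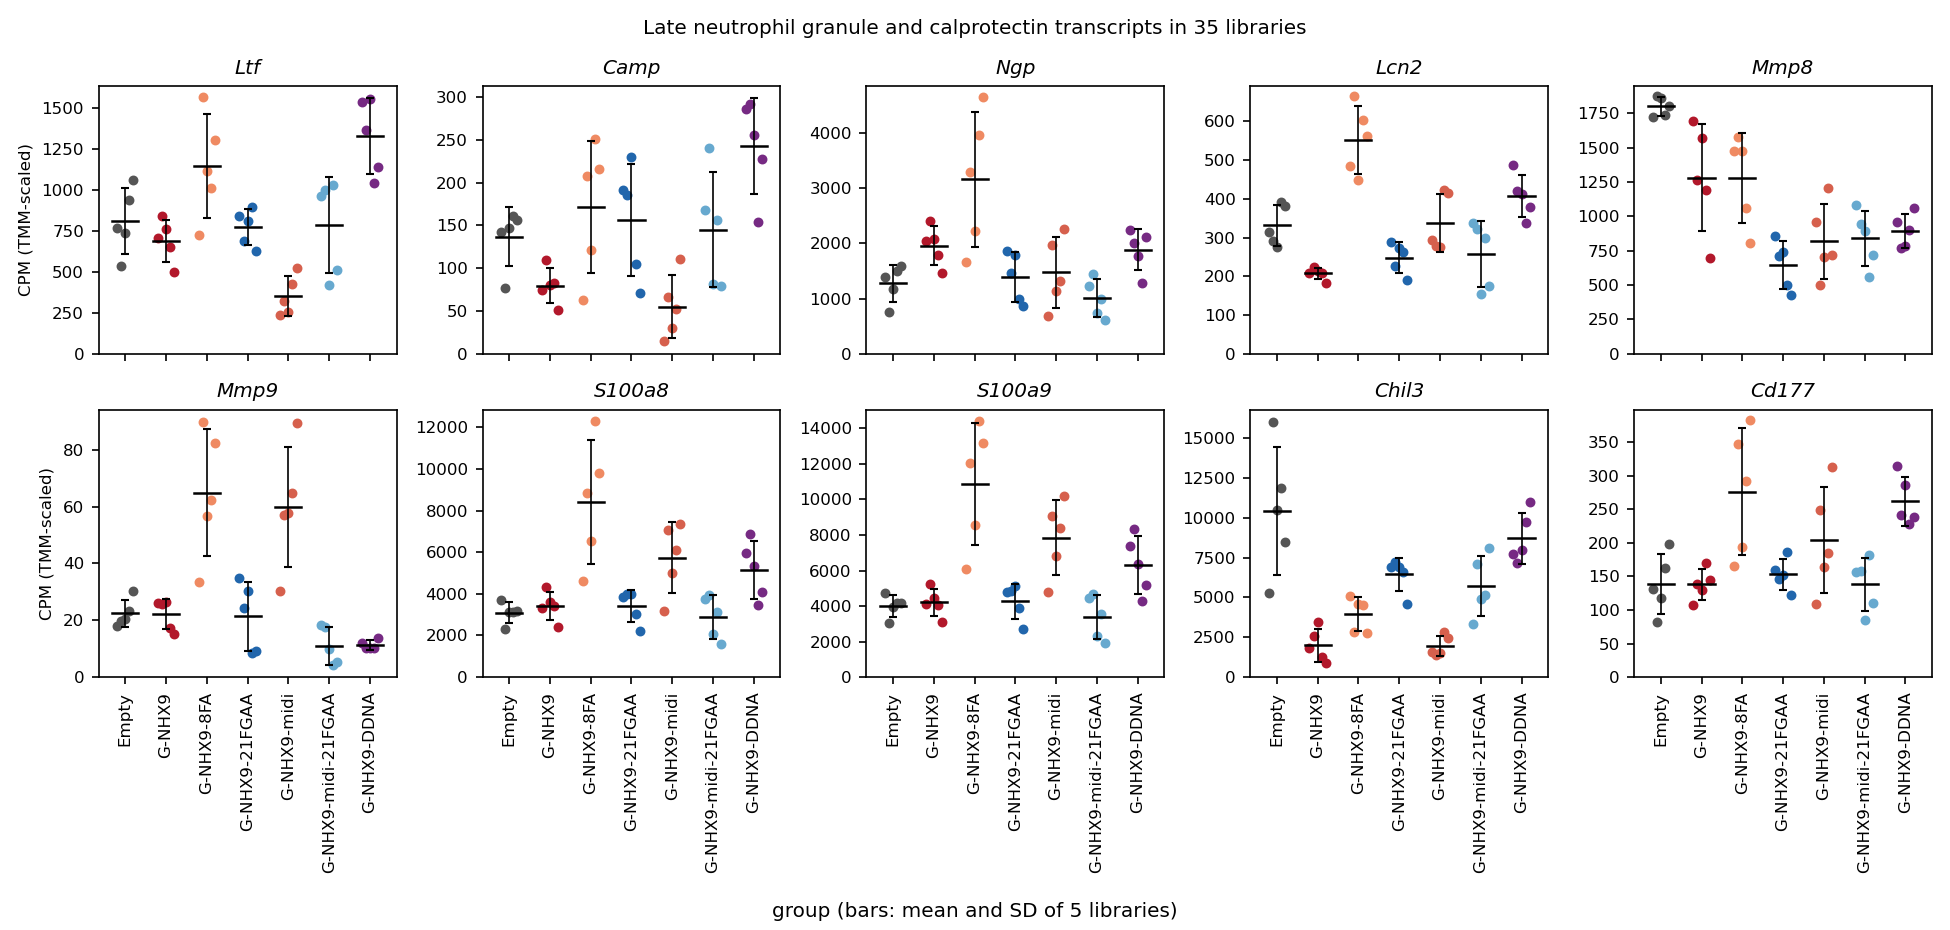
Level of each of the 10 transcripts in TMM-scaled CPM (vertical axis, linear from 0, its own scale in each panel) in the 7 groups, with 1 point per library and bars for the mean and SD of 5 libraries. S100a8, S100a9 and Mmp9 are highest in G-NHX9-8FA and G-NHX9-midi, while Chil3 and Mmp8 are highest in Empty.

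The summed level of the 10 genes was a mixture of patterns that ran in different directions. In Empty the sums were 18222, 25016, 21833, 24099 and 21022 CPM, and in G-NHX9 14122, 17152, 16374, 12820.4 and 9458 CPM. Every G-NHX9 library was under the lowest Empty library. Without Chil3 the sums were 12933, 8994, 11379, 12226 and 12568 CPM in Empty and 12303, 14574, 12926, 11589 and 8570.2 CPM in G-NHX9, and the groups then overlapped. Chil3 made up 46.1% ± 12.9 of the sum in Empty (SD, n = 5) and 13.6% ± 4.79 in G-NHX9, 14.3% ± 7.03 in G-NHX9-8FA and 10.6% ± 2.82 in G-NHX9-midi. In the groups with the 21FGAA replacements or the mutated homeodomain its part was larger, at 37.1% ± 2.5 in G-NHX9-21FGAA, 38.4% ± 13.5 in G-NHX9-midi-21FGAA and 35.1% ± 8.7 in G-NHX9-DDNA. The largest mean sum was that of G-NHX9-8FA, 29875 ± 7129 CPM, of which 25932 ± 7709 CPM was left without Chil3. These sums describe the libraries and were not tested. In bulk libraries such as these, fewer neutrophil-lineage cells and less of a transcript per cell cannot be told apart.

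**Figure D2:**
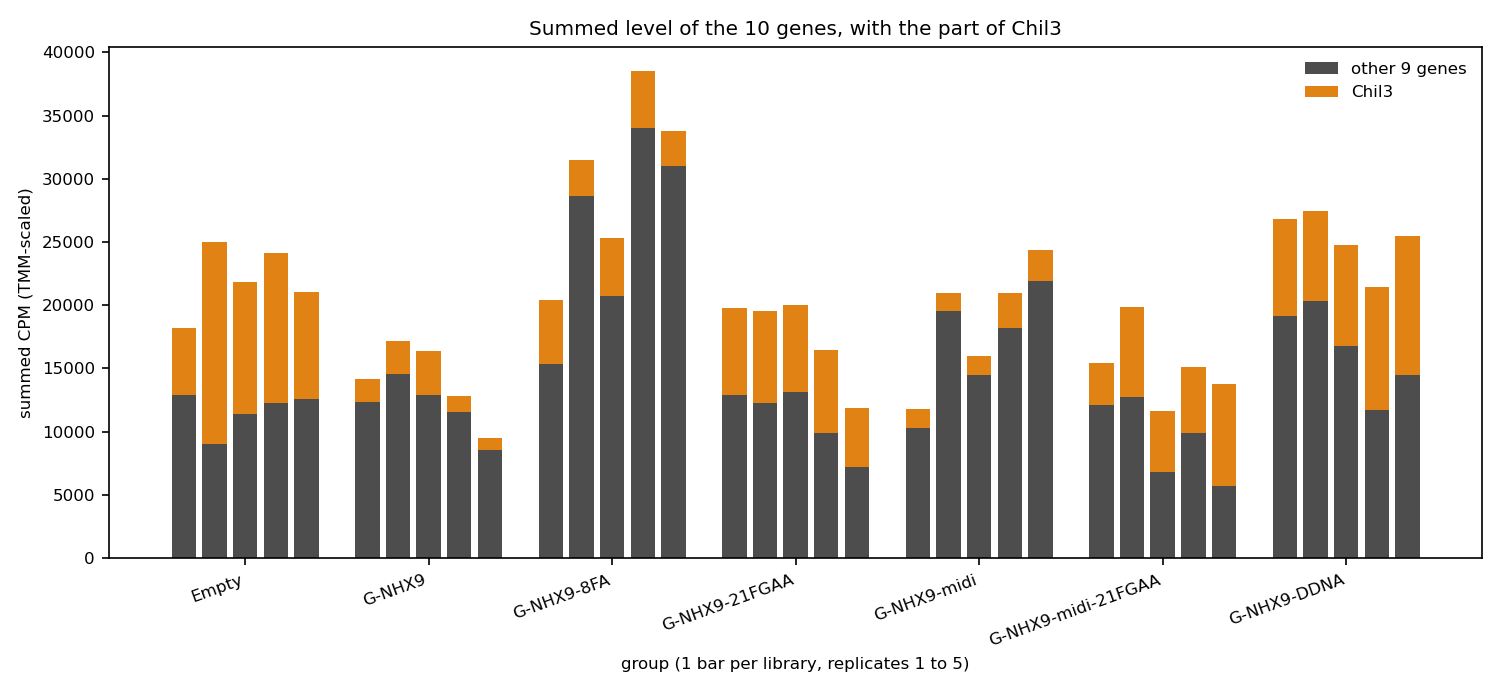
Summed TMM-scaled CPM of the 10 genes (vertical axis, linear from 0) in each of the 35 libraries, 1 bar per library in the order of the replicate numbers, split into Chil3 and the other 9 genes. The Chil3 part is thin in G-NHX9, G-NHX9-8FA and G-NHX9-midi (group means of 13.6%, 14.3% and 10.6%) and thick in the other 4 groups (35.1% to 46.1%).

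Against Empty, the intact fusion lowered 2 of the 10 genes and raised none, while the alanine mutant and the shortened fusion raised several of them. In G-NHX9, Chil3 and Lcn2 fell, and over all genes 16.9% of all tested genes were higher and 15.2% lower. In G-NHX9-8FA 6 of the 10 rose (Ngp, Lcn2, Mmp9, S100a8, S100a9 and Cd177) and 1 fell (Chil3), where 13.4% of all tested genes were higher and 13.2% lower. In G-NHX9-midi 3 rose (Mmp9, S100a8 and S100a9) and 4 fell (Ltf, Camp, Mmp8 and Chil3), where 20.5% of all tested genes were higher and 20% lower. The 6 rises in G-NHX9-8FA and the 4 falls in G-NHX9-midi were larger shares of the 10 than of all genes, and the 2 falls in G-NHX9 were close to the share over all genes.

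With the 21FGAA replacements, 1 of the 10 genes was called in the intact form and 2 in the shortened form, each as a fall. The 1 fall was near the share lower over all genes. The 2 falls were a larger share of the 10 than of all genes, and that of Chil3 was lost without some single libraries. In G-NHX9-21FGAA none of the 10 rose and Mmp8 fell, where 14.7% of all tested genes were higher and 12.5% lower. In G-NHX9-midi-21FGAA none rose and Mmp8 and Chil3 fell, where 9.59% of all tested genes were higher and 7.32% lower. For the 3 constructs in which edgeR's test called no rise, an unadjusted p under 0.05 gave 1 rise in G-NHX9 (Ngp) and 0 in G-NHX9-21FGAA and in G-NHX9-midi-21FGAA, and DESeq2 called 0 in each. The rise of Ngp in G-NHX9 was called by edgeR's test in a fit to G-NHX9 and Empty alone (adjusted p = 0.041) and on unscaled library totals (0.032). Falls at an unadjusted p under 0.05 numbered 3, 3 and 4 in the same order. The shares of all genes, here and below, are those of edgeR's adjusted calls, and none was counted at an unadjusted p. In G-NHX9-DDNA 3 rose (Ltf, S100a8 and Cd177) and Mmp8 fell, where 9.85% of all tested genes were higher and 7.35% lower. The median log2 fold change of the 10 genes was 0.87 in G-NHX9-8FA, 0.61 in G-NHX9-DDNA, 0.12 in G-NHX9-midi, 0.012 in G-NHX9-21FGAA, -0.12 in G-NHX9 and -0.30 in G-NHX9-midi-21FGAA, beside medians between -0.020 and 0.030 over all tested genes.

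**Figure D3:**
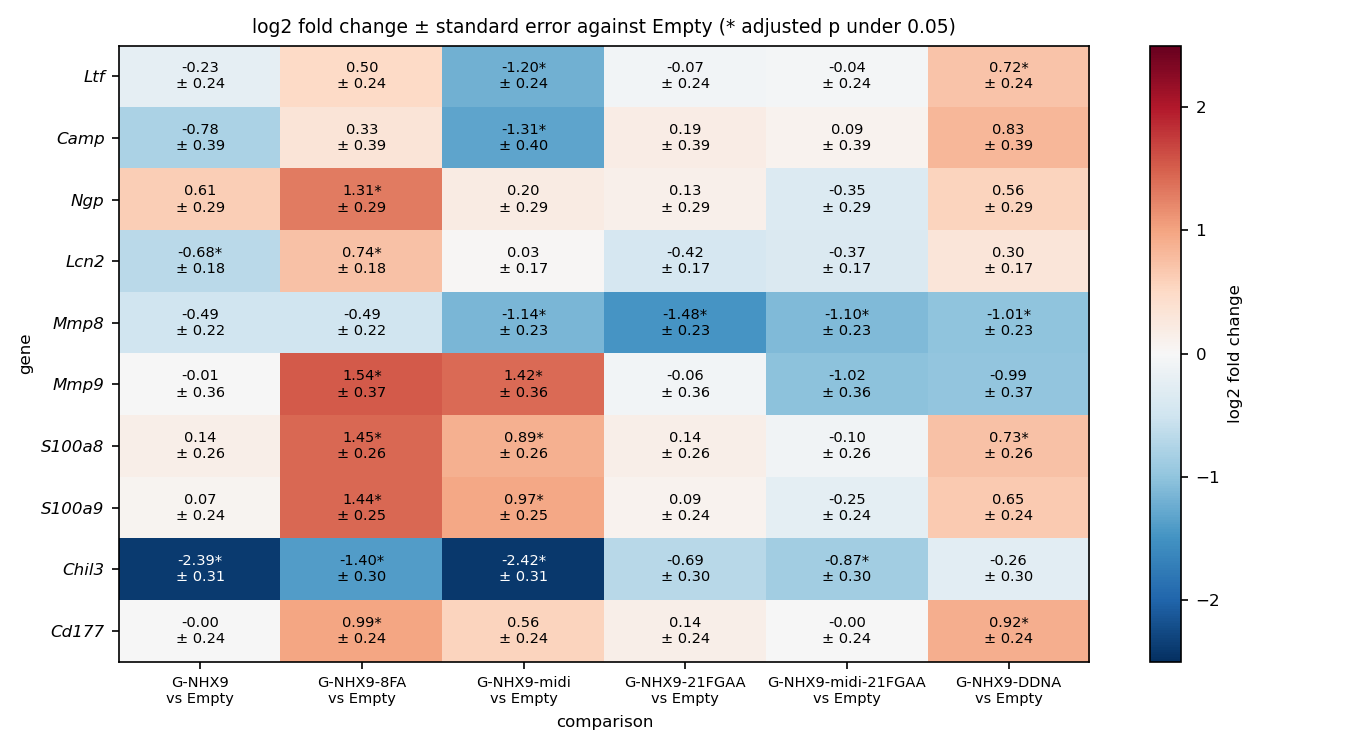
Log2 fold change ± standard error of each of the 10 genes (vertical axis) in the 6 constructs against Empty (horizontal axis), with red above 0 and blue below it and an asterisk where the adjusted p was under 0.05. Chil3 is lower than Empty in every column and Mmp8 as well, though not every one of these passed the test, while S100a8, S100a9 and Mmp9 are higher in the columns of G-NHX9-8FA and G-NHX9-midi.

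The calprotectin subunits rose in G-NHX9-8FA and G-NHX9-midi and were close to Empty with the intact fusion. S100a9 was at 4725, 3042, 3935, 4199.6 and 4166 CPM in the Empty libraries and at 6107, 12054, 8549, 14438 and 13181 CPM in those of G-NHX9-8FA. In G-NHX9-midi it was at 4765, 9053, 6816, 8404 and 10174 CPM. All libraries of both constructs were above the highest Empty library, replicate 1 of G-NHX9-midi only just. S100a9 rose 2.71-fold in G-NHX9-8FA (1.44 ± 0.25, adjusted p = 4.2e-05) and 1.95-fold in G-NHX9-midi (0.97 ± 0.25, adjusted p = 0.0019). In G-NHX9 the values were 4117, 5248, 4463, 4085 and 3121 CPM, of which only replicate 2 was above every Empty library, and the difference did not pass the test (0.068 ± 0.24, adjusted p = 0.87). G-NHX9-DDNA had 7371, 8335, 6372, 4303 and 5201 CPM, with 4 of 5 libraries above Empty and an adjusted p that missed the threshold (0.65 ± 0.24, adjusted p = 0.06) and passed it without replicate 4 or 5 of G-NHX9-DDNA (0.037 to 0.048). With no library left out, it passed in DESeq2 (adjusted p = 0.037), on unscaled totals (0.019), with a covariate from sex-linked transcripts (0.042) and in a fit to both groups alone (0.03). It did not pass with RLE scaling, other filters or the replicate block.

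S100a8 followed its partner. Empty had 3719, 2321, 3115, 3118 and 3177 CPM and G-NHX9-8FA 4601, 8837, 6536, 12318 and 9783 CPM, a rise of 2.72-fold with no overlap (1.45 ± 0.26, adjusted p = 7.7e-05). G-NHX9-midi had 3162, 7079, 5025, 6108 and 7337 CPM, with replicate 1 inside the range of Empty, and rose 1.86-fold (0.89 ± 0.26, adjusted p = 0.0056). G-NHX9-DDNA had 5968, 6860.2, 5334, 3459 and 4072 CPM, with replicate 4 inside the range of Empty, and rose 1.66-fold (0.73 ± 0.26, adjusted p = 0.045). That last call was lost without any 1 of Empty replicates 2 to 5 and G-NHX9-DDNA replicates 1 to 3, with adjusted p values between 0.068 and 0.14. In G-NHX9, G-NHX9-21FGAA and G-NHX9-midi-21FGAA the group means were 3412 ± 687 CPM, 3416 ± 781 CPM and 2891 ± 1039 CPM against 3090.1 ± 499 CPM in Empty, and none of the 3 passed the test. The ratio of S100a9 to S100a8 in CPM stayed between 1.17 ± 0.0367 (G-NHX9-midi-21FGAA) and 1.38 ± 0.082 (G-NHX9-midi) as group means ± SD, and the r between both genes over the deviations of the 35 libraries from their group means was 0.99, as a description of libraries that share depth and culture.

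Lactoferrin moved in opposite directions with the shortened fusion and the homeodomain mutant. Ltf was at 766, 536, 738, 937 and 1057 CPM in Empty and at 234, 318, 255, 426 and 522 CPM in G-NHX9-midi. Every library of the shortened fusion was below the lowest Empty library, a fall of 2.3-fold (-1.20 ± 0.24, adjusted p = 0.00013). In G-NHX9-DDNA it was at 1533, 1362, 1555, 1039 and 1138 CPM, with 4 of 5 libraries above every Empty library, a rise of 1.64-fold (0.72 ± 0.24, adjusted p = 0.035). The rise was lost without any 1 of replicates 1 to 3 of Empty or of G-NHX9-DDNA, with adjusted p values between 0.052 and 0.10. In G-NHX9-8FA the values were 720.03, 1564, 1115, 1007 and 1300.1 CPM, and this difference from Empty did not pass (0.50 ± 0.24, adjusted p = 0.12). G-NHX9 (689 ± 128 CPM), G-NHX9-21FGAA (771 ± 111 CPM) and G-NHX9-midi-21FGAA (782 ± 294 CPM) overlapped Empty (807 ± 199.7 CPM) and did not pass either.

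The cathelicidin precursor Camp fell in G-NHX9-midi, where the neutrophil granule protein gene Ngp did not pass the test. Camp was at 142, 77.2, 147, 161 and 156 CPM in Empty and at 14.6, 66.6, 29.9, 52.6 and 111 CPM in G-NHX9-midi. All but replicate 5 of the shortened fusion were under the whole of Empty, and Camp fell 2.49-fold (-1.31 ± 0.40, adjusted p = 0.0083). For Ngp the same groups had 1391, 747, 1167, 1493 and 1599 CPM and 685, 1976, 1133, 1312 and 2263 CPM, which overlapped (0.20 ± 0.29, adjusted p = 0.6). Ngp rose in G-NHX9-8FA, with 1670.4, 3302, 2227, 3966 and 4658 CPM, all above the highest Empty library (1.31 ± 0.29, adjusted p = 0.00097). Camp in the same libraries was at 62.6, 208, 121, 251 and 216 CPM, from below the lowest to above the highest Empty library (0.33 ± 0.39, adjusted p = 0.59). In G-NHX9 the pair leaned apart without either passing the test over all libraries: Camp was at 74.5, 109, 79.8, 82.5 and 51.5 CPM (-0.78 ± 0.39, adjusted p = 0.13) and Ngp at 2046, 2409, 2078, 1784 and 1459 CPM (0.61 ± 0.29, adjusted p = 0.11). Both passed in a fit to G-NHX9 and Empty alone (adjusted p = 0.019 for Camp and 0.041 for Ngp), and Ngp also on unscaled library totals (0.032).

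The ratio of Camp to Ngp separated the groups into a low and a high set. It was looked at after the values of both genes had been seen and is given without a test. Camp in CPM was 10.7% ± 1.08 of Ngp in Empty (range 9.76 to 12.6%), 4.03% ± 0.51 in G-NHX9 (3.53 to 4.62%), 5.29% ± 1.1 in G-NHX9-8FA (3.75 to 6.32%) and 3.41% ± 1.1 in G-NHX9-midi (2.14 to 4.91%). It was 10.9% ± 1.87 in G-NHX9-21FGAA (8.3 to 12.8%), 14% ± 2.25 in G-NHX9-midi-21FGAA (11 to 16.6%) and 12.9% ± 1.62 in G-NHX9-DDNA (10.7 to 14.5%). The 15 libraries of G-NHX9, G-NHX9-8FA and G-NHX9-midi were all below the 20 libraries of the other 4 groups. Within groups the genes kept step: the r of their deviations from the group means was 0.95, against 0.52 over all 35 libraries with the group differences left in.

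**Figure D4:**
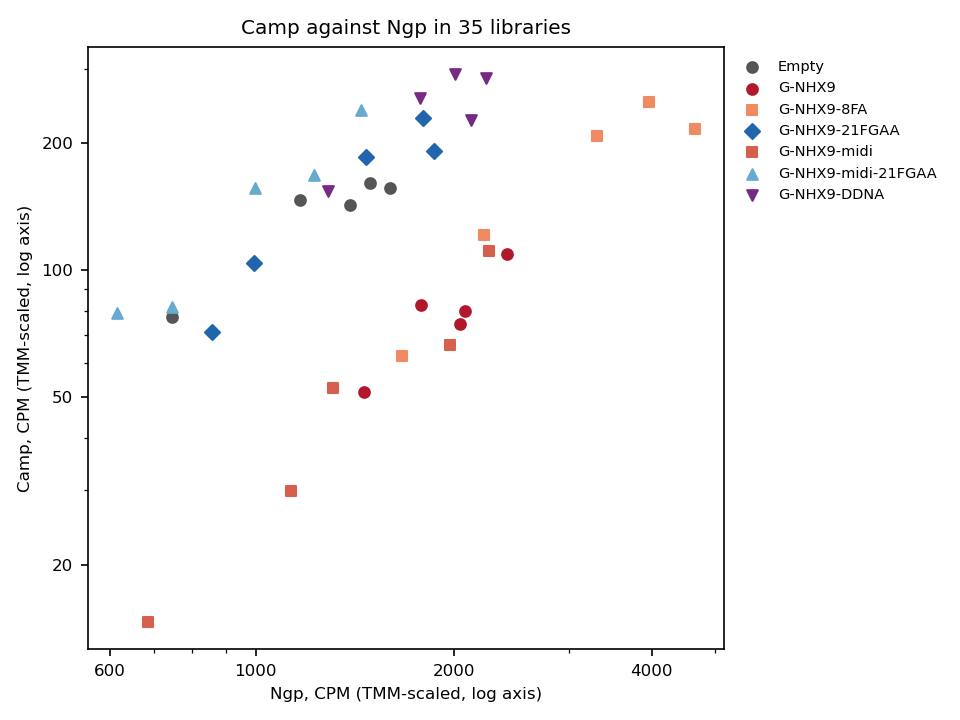
Camp (vertical axis) against Ngp (horizontal axis), both in TMM-scaled CPM on log axes, with 1 point per library, coloured by group. The libraries of G-NHX9, G-NHX9-8FA and G-NHX9-midi lie on a lower band (2.14% to 6.32% of Ngp) than those of Empty, G-NHX9-21FGAA, G-NHX9-midi-21FGAA and G-NHX9-DDNA (8.30% to 16.6%).

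Lipocalin 2 fell with the intact fusion and rose with the alanine mutant. Lcn2 was at 315, 292, 277, 392 and 381 CPM in Empty, at 207, 224, 214, 208 and 183 CPM in G-NHX9 and at 484, 666, 449.8, 604 and 562 CPM in G-NHX9-8FA. The 3 sets of libraries did not overlap. Lcn2 fell 1.6-fold in G-NHX9 (-0.68 ± 0.18, adjusted p = 0.0031) and rose 1.67-fold in G-NHX9-8FA (0.74 ± 0.18, adjusted p = 0.0017). In G-NHX9-midi it was at 295, 278, 277, 422 and 416 CPM and did not pass the test against Empty (0.026 ± 0.17, adjusted p = 0.92). G-NHX9-21FGAA (189 to 288 CPM), G-NHX9-midi-21FGAA (154 to 337 CPM) and G-NHX9-DDNA (338 to 487 CPM) did not pass the test against Empty (277 to 392 CPM).

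The neutrophil collagenase Mmp8 was the most evenly expressed of the 10 in Empty (an SD of 3.85% of the mean) and had lower means in all 6 constructs. Its Empty libraries were at 1725, 1877, 1863, 1739.8 and 1803 CPM, and those of G-NHX9-21FGAA at 855, 709, 738, 500.5 and 427 CPM, a fall of 2.79-fold (-1.48 ± 0.23, adjusted p = 2.2e-05). G-NHX9-midi had 958, 503, 704, 1209 and 718 CPM, a fall of 2.2-fold (-1.14 ± 0.23, adjusted p = 0.00012). All libraries of these groups were under the lowest Empty library. The same held in G-NHX9-midi-21FGAA (560.1 to 1083 CPM), which fell 2.15-fold (-1.10 ± 0.23, adjusted p = 0.0015), and in G-NHX9-DDNA (768 to 1062 CPM), which fell 2.01-fold (-1.01 ± 0.23, adjusted p = 0.0028). In G-NHX9 the libraries were at 1692, 1263, 1569, 1192 and 695 CPM and in G-NHX9-8FA at 1473, 1580.2, 1473, 1059 and 808 CPM. All 10 of these were also below Empty, but neither difference passed (-0.49 ± 0.22, adjusted p = 0.093 and -0.49 ± 0.22, adjusted p = 0.1). With the replicate number as a block, which pairs libraries between G-NHX9 and Empty, the difference in G-NHX9 was -0.54 with an adjusted p of 0.034, and without replicate 1 of G-NHX9 it passed too (adjusted p = 0.044).

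Gelatinase B, the tertiary granule protease, was the rarest of the 10 transcripts. Mmp9 was at 18.1, 19.8, 20.3, 23.4 and 30.4 CPM in Empty, at 33.5, 89.8, 56.7, 62.2 and 82.4 CPM in G-NHX9-8FA and at 30.4, 57.2, 57.6, 64.7 and 89.5 CPM in G-NHX9-midi. All libraries of both constructs were above the highest Empty library, replicate 1 of G-NHX9-midi by very little. Mmp9 rose 2.9-fold in G-NHX9-8FA (1.54 ± 0.37, adjusted p = 0.0018) and 2.68-fold in G-NHX9-midi (1.42 ± 0.36, adjusted p = 0.0021). In G-NHX9-midi-21FGAA it was at 18.2, 17.8, 10.1, 4.12 and 5.25 CPM and in G-NHX9-DDNA at 12, 10.2, 10.3, 10.1 and 13.8 CPM. The G-NHX9-DDNA libraries were all under the lowest Empty library and those of G-NHX9-midi-21FGAA all but replicate 1. Neither passed the test as fitted (-1.02 ± 0.36, adjusted p = 0.052 and -0.99 ± 0.37, adjusted p = 0.058), and both did with the replicate block (-1.10, adjusted p = 0.029, and -1.004, adjusted p = 0.043). G-NHX9-21FGAA was split, at 34.9, 24.3, 30.3, 8.44 and 9.17 CPM, with replicates 4 and 5 far below the other 3. The fall in G-NHX9-midi-21FGAA also passed without replicate 1 of Empty or replicate 1 or 2 of its own group (adjusted p from 0.024 to 0.05 as rounded).

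Ym1 had the largest fold changes of the 10 genes against Empty. Chil3 was at 5289, 16022, 10454, 11873 and 8454 CPM in Empty, at 1819, 2578, 3448, 1232 and 888 CPM in G-NHX9 and at 1556, 1394, 1522, 2818 and 2441 CPM in G-NHX9-midi. Empty itself spread over 3-fold, and every library of both constructs was below it. Chil3 fell 5.23-fold in G-NHX9 (-2.39 ± 0.31, adjusted p = 3.5e-07) and 5.35-fold in G-NHX9-midi (-2.42 ± 0.31, adjusted p = 1.5e-07). G-NHX9-8FA had 5059, 2804, 4568, 4505 and 2781 CPM, again under every Empty library, and fell 2.64-fold (-1.40 ± 0.30, adjusted p = 0.00062). In G-NHX9-midi-21FGAA, at 3320.2, 7097, 4867, 5176 and 8084 CPM, the libraries overlapped Empty and the fall of 1.82-fold (-0.87 ± 0.30, adjusted p = 0.041) was lost without any 1 of Empty replicates 2 to 4 and G-NHX9-midi-21FGAA replicates 1, 3 and 4 (adjusted p from 0.067 to 0.15). G-NHX9-21FGAA, at 6892, 7238, 6888, 6612 and 4614 CPM, and G-NHX9-DDNA, at 7690.1, 7156, 7996, 9732 and 11012 CPM, did not pass the test (-0.69 ± 0.30, adjusted p = 0.082 and -0.26 ± 0.30, adjusted p = 0.61), the first of them passing without replicate 1 of Empty (adjusted p = 0.032). The call in G-NHX9-midi-21FGAA was also lost on unscaled library totals (adjusted p = 0.065), with no filter (0.055) and in a fit to the compared groups alone (0.067).

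Because macrophages also make Ym1, their markers are given beside it. Of 16 tested macrophage markers, 4 were higher and 6 lower than Empty in G-NHX9, 0 higher and 5 lower in G-NHX9-8FA and 1 higher and 11 lower in G-NHX9-midi. The counts were 1 higher and 7 lower in G-NHX9-21FGAA, 1 higher and 3 lower in G-NHX9-midi-21FGAA and 1 higher and 3 lower in G-NHX9-DDNA. Their summed level per library was 3094 to 3999 CPM in Empty, 1548 to 2744 in G-NHX9, 1764 to 3356 in G-NHX9-8FA and 1405 to 2744 in G-NHX9-midi, and 1648 to 2818 in G-NHX9-21FGAA, 2532 to 3316 in G-NHX9-midi-21FGAA and 2380.4 to 2715 in G-NHX9-DDNA. Mrc1, the mannose receptor gene of alternatively activated macrophages, is named as the most abundant of these markers. It fell in G-NHX9 (-1.38), G-NHX9-8FA (-0.84) and G-NHX9-midi (-0.82). The median log2 fold change of the 16 markers in these constructs was -0.066, -0.44 and -0.77. The part of macrophages in the level of Chil3 was not tested.

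The surface protein gene Cd177 rose in the alanine mutant and the homeodomain mutant. It was at 132, 82.7, 118, 163 and 198 CPM in Empty, 165, 347, 194, 293 and 384 CPM in G-NHX9-8FA and 314, 241, 287, 229 and 239 CPM in G-NHX9-DDNA. The G-NHX9-DDNA libraries were all above Empty, while replicates 1 and 3 of G-NHX9-8FA lay within it. Cd177 rose 1.99-fold in G-NHX9-8FA (0.99 ± 0.24, adjusted p = 0.0024) and 1.89-fold in G-NHX9-DDNA (0.92 ± 0.24, adjusted p = 0.0096). In G-NHX9-midi it was at 109.5, 249, 164, 184 and 314 CPM, which did not pass (0.56 ± 0.24, adjusted p = 0.067). The rise passed without replicate 5 of Empty or 1 of G-NHX9-midi (adjusted p from 0.017 to 0.029). With no library left out, it passed on unscaled library totals (0.028) and with a covariate from sex-linked transcripts (0.028). G-NHX9, G-NHX9-21FGAA and G-NHX9-midi-21FGAA were at 138 ± 22.9 CPM, 153 ± 23.1 CPM and 138 ± 39.6 CPM against 139 ± 44 CPM in Empty.

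Comparing constructs with each other asks what each change in the fusion did to these genes. The alanine replacements of G-NHX9-8FA went with higher levels than the intact fusion for 7 of the 10 genes and lower for none, where 6.43% of all tested genes were higher and 8.04% lower. The 7 were Ltf, Lcn2, Mmp9, S100a8, S100a9, Chil3 and Cd177. Lcn2 rose 2.67-fold (1.42 ± 0.18, adjusted p = 8.3e-07), S100a9 2.58-fold (1.37 ± 0.25, adjusted p = 0.00021) and S100a8 2.47-fold (1.30 ± 0.26, adjusted p = 0.00069), each with no overlap. Mmp9 rose 2.93-fold, also without overlap (1.55 ± 0.37, adjusted p = 0.0036), and Cd177 2-fold with 4 of 5 libraries above all of G-NHX9 (0.999 ± 0.24, adjusted p = 0.005). The rises of Chil3 (0.98 ± 0.30, adjusted p = 0.023) and Ltf (0.73 ± 0.24, adjusted p = 0.036) were each lost without some single library: Chil3 without replicate 4 or 5 of G-NHX9 or replicate 1 of G-NHX9-8FA (adjusted p from 0.064 to 0.093), and Ltf without replicate 1, 4 or 5 of G-NHX9 or replicate 2, 3 or 5 of G-NHX9-8FA (from 0.051 to 0.13). Chil3 was also lost in a fit to both groups alone (adjusted p = 0.084) and Ltf on unscaled totals (0.069). Camp (1.11 ± 0.40, adjusted p = 0.055) and Ngp (0.69 ± 0.29, adjusted p = 0.1) missed the threshold, Camp passing it without replicate 1 of G-NHX9-8FA (adjusted p = 0.025), and so did Mmp8, with 1279 ± 330.2 CPM in G-NHX9-8FA and 1282 ± 388 CPM in G-NHX9 (-0.004 ± 0.22, adjusted p = 0.99). At an unadjusted p under 0.05 9 of the 10 were higher and 0 lower, and DESeq2 called 8 higher and 0 lower. Over all genes DESeq2 called 2911 in both directions together, where edgeR's test called 2484. The share of all genes at an unadjusted p was not counted.

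The shortened fusion differed from the intact one in both directions, with 4 of the 10 genes higher and 2 lower, where 8.5% of all tested genes were higher and 11.2% lower. S100a8, S100a9, Mmp9 and Lcn2 were higher, Ltf and Mmp8 lower. Mmp9 rose 2.7-fold with no overlap (1.43 ± 0.36, adjusted p = 0.0047) and Lcn2 1.63-fold with no overlap (0.70 ± 0.18, adjusted p = 0.0039). S100a9 rose 1.86-fold with replicate 1 inside the range of G-NHX9 (0.90 ± 0.25, adjusted p = 0.0083). Ltf fell 1.96-fold, and only replicate 5 of G-NHX9-midi reached the range of G-NHX9 (-0.97 ± 0.24, adjusted p = 0.0034). The calls of S100a8 (0.75 ± 0.26, adjusted p = 0.036) and Mmp8 (-0.65 ± 0.22, adjusted p = 0.038) did not hold without some single libraries: S100a8 without replicate 1, 4 or 5 of G-NHX9 or 2, 4 or 5 of G-NHX9-midi (adjusted p from 0.055 to 0.11), and Mmp8 without replicates 1 to 4 of G-NHX9 or 2, 3 or 5 of G-NHX9-midi, each left out alone (from 0.051 to 0.12). Mmp8 was also lost in a fit to both groups alone (adjusted p = 0.1), and Cd177 was gained without replicate 1 of G-NHX9-midi (0.034). Chil3 was at 1946 ± 641 CPM in G-NHX9-midi and 1993 ± 1036 CPM in G-NHX9 (-0.034 ± 0.30, adjusted p = 0.95).

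Set directly against each other, in a comparison added after the data were seen, G-NHX9-midi was lower than G-NHX9-8FA for 5 of the 10 genes and higher for none, where 1.51% of all tested genes were higher and 2.74% lower. Ltf was 3.25-fold lower with no overlap (-1.70 ± 0.24, adjusted p = 3.4e-05). Camp (-1.64 ± 0.40, adjusted p = 0.013), Ngp (-1.10 ± 0.29, adjusted p = 0.022), Lcn2 (-0.71 ± 0.18, adjusted p = 0.013) and Chil3 (-1.02 ± 0.30, adjusted p = 0.044) were lower too, but each of these 4 calls was lost without replicate 3 of G-NHX9-midi, which left Ltf alone. Among left-out libraries Camp's was lost there alone (adjusted p = 0.061), Lcn2's also without replicate 2 of either construct (from 0.052 to 0.064), Ngp's without replicate 1 of G-NHX9-midi or 2, 4 or 5 of G-NHX9-8FA (from 0.053 to 0.092), and Chil3's without replicate 1 or 2 of G-NHX9-midi or 1, 3 or 4 of G-NHX9-8FA (from 0.087 to 0.15). In a fit to both groups alone the calls of Camp (adjusted p = 0.097) and Ngp (0.1) were lost, and without replicate 4 of G-NHX9-midi or 5 of G-NHX9-8FA that of Mmp8 was gained (0.029 to 0.046). None was higher at an unadjusted p under 0.05 (0 of 10) or by DESeq2 (0 of 10). Calprotectin and Mmp9, which both constructs raised, did not pass this comparison: S100a8 (-0.55 ± 0.26, adjusted p = 0.27), S100a9 (-0.47 ± 0.24, adjusted p = 0.34) and Mmp9 (-0.12 ± 0.36, adjusted p = 0.93).

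The 21FGAA replacements in the intact fusion raised Chil3 and lowered Mmp8 and moved none of the other 8 genes past the threshold, where 8.91% of all tested genes were higher and 8.34% lower. Chil3 rose 3.24-fold and all 5 libraries of G-NHX9-21FGAA were above G-NHX9 (1.69 ± 0.30, adjusted p = 9.4e-05). Mmp8 fell 1.99-fold, though replicate 5 of G-NHX9 (695 CPM) lay among the mutant libraries (-0.99 ± 0.23, adjusted p = 0.0016). Camp was at 156 ± 65.9 CPM against 79.4 ± 20.6 CPM and missed the threshold (0.98 ± 0.39, adjusted p = 0.09), passing it without replicate 5 of G-NHX9-21FGAA (adjusted p = 0.04).

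With the homeodomain mutation 5 of the 10 genes were higher than with the intact fusion and none lower, where 10.7% of all tested genes were higher and 11.4% lower. Chil3 rose 4.37-fold (2.13 ± 0.31, adjusted p = 3e-06), Camp 3.06-fold (1.61 ± 0.40, adjusted p = 0.0032) and Lcn2 1.97-fold (0.98 ± 0.18, adjusted p = 8.9e-05). Ltf rose 1.92-fold (0.94 ± 0.24, adjusted p = 0.0037) and Cd177 1.89-fold (0.92 ± 0.24, adjusted p = 0.0056). At an unadjusted p under 0.05 2 were lower (Mmp8 and Mmp9), and DESeq2 called 1 of them, Mmp9, lower (adjusted p = 0.032). For all 5 higher genes every library of G-NHX9-DDNA was above every library of G-NHX9. The share of all tested genes whose libraries separate in this way was not counted. Mmp9 pointed the other way, at 11.3 ± 1.62 CPM against 22.2 ± 5.36 CPM, just short of the threshold (-0.98 ± 0.37, adjusted p = 0.051), and passed it with the replicate block (-0.96, adjusted p = 0.05 as rounded). Ngp, at 1887 ± 375 CPM and 1955 ± 355 CPM, did not pass the test (-0.051 ± 0.29, adjusted p = 0.94). Without replicate 5 of G-NHX9 Mmp8 (adjusted p = 0.023) and Mmp9 (0.041) passed as lower, and without replicate 4 of G-NHX9-DDNA S100a9 passed as higher (0.047).

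In the shortened fusion the same FG replacements split the genes, with 3 of 10 higher and 3 lower in G-NHX9-midi-21FGAA than in G-NHX9-midi, where 21% of all tested genes were higher and 22.2% lower. Mmp9 fell 5.41-fold with no overlap (-2.44 ± 0.38, adjusted p = 3e-06). S100a9 was at 4426, 4678, 2331, 3558 and 1918 CPM and fell 2.32-fold, also with no overlap (-1.21 ± 0.25, adjusted p = 0.00015), and S100a8 fell 1.99-fold with some overlap (-0.99 ± 0.26, adjusted p = 0.0022). Chil3 rose 2.93-fold with no overlap (1.55 ± 0.30, adjusted p = 8.6e-05). Camp, at 168, 239.9, 81.9, 157 and 79 CPM, rose 2.64-fold (1.40 ± 0.40, adjusted p = 0.0048), and Ltf, at 961, 995, 419, 1028 and 508 CPM, rose 2.23-fold (1.16 ± 0.24, adjusted p = 0.00019). For Camp and Ltf 3 of the 5 mutant libraries were above the whole of G-NHX9-midi. Lcn2 (-0.39 ± 0.17, adjusted p = 0.07), Cd177 (-0.56 ± 0.24, adjusted p = 0.062) and Ngp (-0.55 ± 0.29, adjusted p = 0.13) missed the threshold, as did Mmp8 (0.036 ± 0.22, adjusted p = 0.91). The fall of Lcn2 passed without replicate 2 or 3 of G-NHX9-midi or 1 or 2 of G-NHX9-midi-21FGAA (adjusted p from 0.024 to 0.049), that of Cd177 without replicate 1 of G-NHX9-midi or 4 of G-NHX9-midi-21FGAA (0.016 to 0.035) and that of Ngp without replicate 1 of G-NHX9-midi (0.037).

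**Figure D5:**
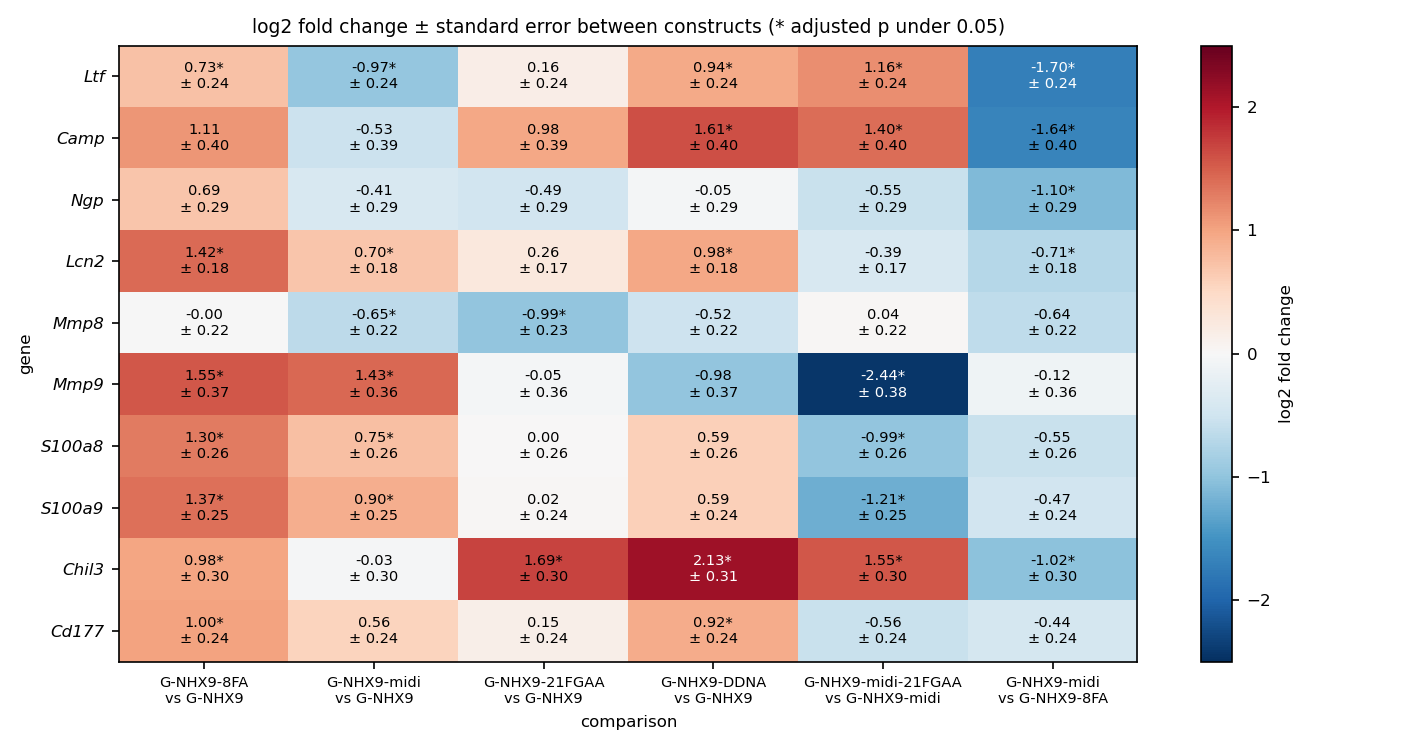
Log2 fold change ± standard error of each of the 10 genes (vertical axis) in 6 comparisons between constructs (horizontal axis), with red above 0 and blue below it and an asterisk where the adjusted p was under 0.05. The column of G-NHX9-8FA against G-NHX9 has 7 called rises, and that of G-NHX9-midi-21FGAA against G-NHX9-midi has rises of Ltf, Camp and Chil3 beside falls of Mmp9, S100a8 and S100a9.

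Whether the FG replacements acted differently in the shortened and the intact fusion was tested as a difference of differences, added after the data were seen. It was higher for 2 of the 10 genes and lower for 2, where 7.43% of the tested genes were higher and 5.2% lower. The difference, on the log2 scale, is the effect in the shortened fusion minus that in the intact one. For Mmp9 it was -2.38 ± 0.51, adjusted p = 0.0016: in the shortened fusion the replacements took it from 59.9 ± 21.1 CPM to 11.1 ± 6.7 CPM, against 22.2 ± 5.36 CPM and 21.4 ± 12.1 CPM with the intact form. For S100a9 the difference was -1.23 ± 0.35, adjusted p = 0.015, while that of S100a8, -0.99 ± 0.36, adjusted p = 0.068, missed the threshold. For Mmp8 it was 1.03 ± 0.32, adjusted p = 0.028 and for Ltf 0.99 ± 0.34, adjusted p = 0.046. The replacements moved Mmp8 by -0.99 in the intact fusion, which passed the test, and by 0.036 in the shortened one, which did not. They moved Ltf by 0.16 in the intact fusion, which did not pass, and by 1.16 in the shortened one, which did. The call of Mmp8 was lost without replicate 1 or 3 of G-NHX9, 4 or 5 of G-NHX9-21FGAA, 2 or 3 of G-NHX9-midi or 1 of G-NHX9-midi-21FGAA (adjusted p from 0.052 to 0.064), and that of Ltf without any 1 of 14 of the 20 libraries (from 0.055 to 0.11), all but replicate 5 of G-NHX9, 4 of G-NHX9-21FGAA, 4 and 5 of G-NHX9-midi and 3 and 5 of G-NHX9-midi-21FGAA. Chil3 rose with the replacements in both forms, and its difference of -0.14 ± 0.42, adjusted p = 0.88 did not pass. No difference was called for Camp (0.42 ± 0.55, adjusted p = 0.69), Ngp (-0.065 ± 0.41, adjusted p = 0.94), Lcn2 (-0.65 ± 0.25, adjusted p = 0.08) or Cd177 (-0.71 ± 0.34, adjusted p = 0.19). With the replicate block, whose numbers pair the libraries of G-NHX9 and G-NHX9-21FGAA but not those of the shortened forms, the differences of S100a8 (-1.03, adjusted p = 0.041) and Lcn2 (-0.67, adjusted p = 0.045) passed. They passed as well without some single libraries: S100a8 without replicate 2 of G-NHX9, 5 of G-NHX9-21FGAA, 1 of G-NHX9-midi or 1 or 2 of G-NHX9-midi-21FGAA (0.028 to 0.046), and Lcn2 without replicate 5 of G-NHX9-21FGAA or 1 or 2 of G-NHX9-midi-21FGAA (0.032 to 0.048). In a fit to the 4 groups alone the calls of Mmp8 (adjusted p = 0.061) and Ltf (0.063) were lost, and with no filter that of Ltf (0.06).

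Of 9 granulocyte transcription factors, all tested, Gfi1 had the largest rises against Empty. Gfi1 encodes a repressor needed for neutrophil differentiation. It was at 18 ± 6.35 CPM in Empty and 64.6 ± 10.5 CPM in G-NHX9 (1.84 ± 0.26, adjusted p = 1.1e-06), 87.6 ± 36.4 CPM in G-NHX9-8FA (2.28 ± 0.26, adjusted p = 5e-08) and 76.1 ± 21.6 CPM in G-NHX9-midi (2.08 ± 0.26, adjusted p = 8.4e-08). It also rose in G-NHX9-21FGAA (1.000 ± 0.25, adjusted p = 0.0034) and G-NHX9-DDNA (0.93 ± 0.25, adjusted p = 0.011), but not in G-NHX9-midi-21FGAA (-0.28 ± 0.25, adjusted p = 0.5). Cebpe, which encodes C/EBP epsilon, rose in the same 5 constructs, by log2 fold changes from 0.59 in G-NHX9-21FGAA to 1.11 in G-NHX9-8FA, and was at 0.078 in G-NHX9-midi-21FGAA. Its rise in G-NHX9 (1.02 ± 0.21, adjusted p = 0.00036) stood beside the fall of Lcn2 and the uncalled values of Ltf, Camp and Ngp in the same libraries.

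The other C/EBP factors and lineage regulators moved in both directions. Cebpd rose in G-NHX9-8FA (0.67 ± 0.15, adjusted p = 0.00089) and G-NHX9-midi (0.60 ± 0.15, adjusted p = 0.0015), fell in G-NHX9-21FGAA (-0.56 ± 0.15, adjusted p = 0.0057) and G-NHX9-midi-21FGAA (-0.62 ± 0.15, adjusted p = 0.005), and was at -0.021 in G-NHX9. Cebpa rose in G-NHX9, G-NHX9-8FA and G-NHX9-midi (0.29, 0.47 and 0.54) and fell in G-NHX9-21FGAA (-0.31). Cebpb fell in G-NHX9, G-NHX9-midi and G-NHX9-21FGAA (-0.76, -0.40 and -0.49). Klf4, a factor of monocytic cells, fell in the 5 constructs other than G-NHX9-midi-21FGAA, most in G-NHX9 (-1.69). Spi1, the gene of PU.1, fell in G-NHX9, G-NHX9-21FGAA and G-NHX9-midi-21FGAA (-0.38, -0.46 and -0.25), and Irf8 in G-NHX9-21FGAA, G-NHX9-midi-21FGAA and G-NHX9-DDNA (-0.69, -0.42 and -0.52). Runx1 was not called in any of the 6. Of the 9, the counts were 3 higher and 3 lower in G-NHX9, 4 higher and 1 lower in G-NHX9-8FA, 4 higher and 2 lower in G-NHX9-midi, 2 higher and 6 lower in G-NHX9-21FGAA, 0 higher and 3 lower in G-NHX9-midi-21FGAA and 2 higher and 2 lower in G-NHX9-DDNA.

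Genes for receptors, inhibitors and binding partners of the 10 products were lower more often than higher in every construct except G-NHX9-midi-21FGAA. Of 13 listed, 12 were tested (Lrp2 was not), and the counts against Empty were 0 higher and 3 lower in G-NHX9, 0 higher and 4 lower in G-NHX9-8FA, 2 higher and 6 lower in G-NHX9-midi, 2 higher and 4 lower in G-NHX9-21FGAA, 2 higher and 0 lower in G-NHX9-midi-21FGAA and 2 higher and 3 lower in G-NHX9-DDNA. Lrp1, a receptor that takes up lactoferrin and proteases, fell in G-NHX9 (-1.22), G-NHX9-8FA (-1.56) and G-NHX9-midi (-2.03). Itgb2, the beta chain of the Mac-1 integrin, fell in every construct but G-NHX9-midi-21FGAA, most in G-NHX9 (-0.97 ± 0.14, adjusted p = 2.8e-06), while its partner Itgam fell only in G-NHX9-21FGAA (-0.58). Among metalloproteinase inhibitors, Timp2 fell in the same 5 constructs as Itgb2, most in G-NHX9-midi (-1.01). Timp3 was higher in G-NHX9-21FGAA (2.61), G-NHX9-midi-21FGAA (1.52) and G-NHX9-DDNA (1.73) and lower in G-NHX9-midi (-1.60), and Timp1 was not called in any. Tlr4, a receptor of calprotectin, rose in G-NHX9-midi (0.37) and fell in G-NHX9-21FGAA (-0.46) and G-NHX9-DDNA (-0.45), and Ager, another, was not called. Pecam1, which binds CD177, rose in G-NHX9-midi, G-NHX9-21FGAA, G-NHX9-midi-21FGAA and G-NHX9-DDNA (0.30, 0.44, 0.37 and 0.48). Bsg, a calprotectin receptor, fell in G-NHX9-8FA (-0.28) and G-NHX9-midi (-0.36), Cd36 fell in G-NHX9-midi (-0.43), and Slc22a17, a lipocalin receptor, was not called.

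Other genes of late neutrophils moved in both directions in G-NHX9, G-NHX9-8FA and G-NHX9-midi. Of 39 tested, 16 were higher and 7 lower than Empty in G-NHX9-8FA, 11 higher and 14 lower in G-NHX9-midi and 6 higher and 10 lower in G-NHX9. The counts were 0 higher and 8 lower in G-NHX9-21FGAA, 0 higher and 5 lower in G-NHX9-midi-21FGAA and 5 higher and 4 lower in G-NHX9-DDNA. The formyl peptide receptor gene Fpr1 had the largest fall in G-NHX9 (-2.66), G-NHX9-8FA (-2.08) and G-NHX9-midi (-2.996), with Fpr2 next in G-NHX9 (-1.84) and G-NHX9-midi (-2.43), and Lyz2, the lysozyme gene, after them in G-NHX9 (-1.75). Clec4e, a lectin receptor gene, rose in all 3 (1.18, 1.91 and 1.97). Ly6c2 rose most in G-NHX9 (1.53) and G-NHX9-midi (2.07), with Slpi among the leading rises of both (0.88 and 1.28). Ly6g (1.88) and Itgb2l (1.86), both markers of maturing neutrophils, were among the leading rises in G-NHX9-8FA.

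In G-NHX9-21FGAA, G-NHX9-midi-21FGAA and G-NHX9-DDNA, Retnlg, a resistin-like gene of neutrophils, had the largest falls of that list. It fell by 1.22 on the log2 scale in G-NHX9-21FGAA, by 2.35 in G-NHX9-midi-21FGAA and by 1.34 in G-NHX9-DDNA. Lyz2 and Fpr1 followed in G-NHX9-21FGAA (-1.17 and -1.17), Csf3r, the G-CSF receptor gene, and Lrg1 in G-NHX9-midi-21FGAA (-1.33 and -1.02), and Lyz2 and Csf3r in G-NHX9-DDNA (-0.89 and -0.64). G-NHX9-DDNA had rises of Fcnb, the ficolin B gene (1.503), Stfa1 (1.38) and Abca13 (0.85). Stfa3 (-1.46) and Stfa1 (-1.30) were among the leading falls of G-NHX9-8FA and Stfa3 of G-NHX9-midi (-2.35). The Stfa genes are a family of near copies, so their counts are uncertain.

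Primary granule genes, which precede the 10 in maturation, were higher for at least 5 of 10 in 5 of the 6 constructs and for 1 of 10 in G-NHX9-midi-21FGAA. Of 10 tested, 6 were higher and 1 lower than Empty in G-NHX9, 7 higher and 1 lower in G-NHX9-8FA, 5 higher and 2 lower in G-NHX9-midi, 8 higher and 1 lower in G-NHX9-21FGAA, 1 higher and 0 lower in G-NHX9-midi-21FGAA and 8 higher and 0 lower in G-NHX9-DDNA. Ctsc, the cathepsin C gene and the most abundant of them, fell in G-NHX9 (-0.89), G-NHX9-8FA (-0.69), G-NHX9-midi (-1.05) and G-NHX9-21FGAA (-0.56). Mpo, the myeloperoxidase gene, rose in G-NHX9-21FGAA (1.43 ± 0.38, adjusted p = 0.0049) and G-NHX9-DDNA (1.65 ± 0.38, adjusted p = 0.0034), and was at 0.94 in G-NHX9, 0.82 in G-NHX9-8FA and 0.61 in G-NHX9-midi without passing the test. In G-NHX9 6 primary granule genes rose while none of the 10 late genes did, and in G-NHX9-8FA both kinds rose.

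Markers of other lineages moved between the same groups. Of 19 erythroid markers, 0 were higher and 17 lower than Empty in G-NHX9-8FA and 1 higher and 16 lower in G-NHX9-midi. The counts were 1 higher and 0 lower in G-NHX9, 13 higher and 0 lower in G-NHX9-21FGAA, 16 higher and 0 lower in G-NHX9-midi-21FGAA and 8 higher and 0 lower in G-NHX9-DDNA. Calprotectin and Mmp9 rose in G-NHX9-8FA and G-NHX9-midi, and edgeR's test also called S100a8 higher in G-NHX9-DDNA (adjusted p = 0.045). The summed erythroid level was 387 to 1028 CPM in Empty, 384 to 978 in G-NHX9, 155 to 236 in G-NHX9-8FA, 233 to 416 in G-NHX9-midi, 796 to 2501 in G-NHX9-21FGAA, 863 to 2306 in G-NHX9-midi-21FGAA and 793 to 2329 in G-NHX9-DDNA. Of 14 mast cell and basophil markers, none was higher and 9, 10 and 12 were lower in G-NHX9, G-NHX9-8FA and G-NHX9-midi, while 7, 7 and 3 were higher and none lower in G-NHX9-21FGAA, G-NHX9-midi-21FGAA and G-NHX9-DDNA. For 9 eosinophil markers the counts were 0 higher and 5 lower in G-NHX9, 0 higher and 8 lower in G-NHX9-8FA, 1 higher and 8 lower in G-NHX9-midi, 1 higher and 0 lower in G-NHX9-21FGAA, 1 higher and 0 lower in G-NHX9-midi-21FGAA and 2 higher and 0 lower in G-NHX9-DDNA. For 10 megakaryocyte markers they were 0 higher and 4 lower in G-NHX9, 0 higher and 10 lower in G-NHX9-8FA, 0 higher and 10 lower in G-NHX9-midi, 2 higher and 0 lower in G-NHX9-21FGAA, 0 higher and 0 lower in G-NHX9-midi-21FGAA and 0 higher and 0 lower in G-NHX9-DDNA. The summed mast cell and basophil level was 1600.1 to 4015 CPM in Empty, 869.6 to 1142 in G-NHX9, 777 to 1107 in G-NHX9-8FA and 579 to 1049 in G-NHX9-midi. Of 13 stem and progenitor markers 8 were higher and 1 lower in G-NHX9, with a summed level of 822 to 925 CPM against 329 to 416 in Empty, and 5 higher and 1 lower in G-NHX9-8FA (443 to 552 CPM). The counts were 6 higher and 2 lower in G-NHX9-midi, 7 higher and 0 lower in G-NHX9-21FGAA, 4 higher and 0 lower in G-NHX9-midi-21FGAA and 5 higher and 1 lower in G-NHX9-DDNA. Of 10 lymphoid markers only 5 were tested, of which 2 were lower in each of G-NHX9, G-NHX9-8FA and G-NHX9-midi and 1 in G-NHX9-21FGAA, and 1 was higher in G-NHX9-DDNA, and the T and B cell genes Cd3e and Cd79a had means under 0.1 CPM in every group. The part of these lineages in the levels of the late neutrophil genes was not tested.

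By likeness of pattern over all 35 libraries, the genes nearest to the mean standardized log2 CPM of the 10 were Chil1 (r = 0.89), which encodes another chitinase-like protein, Dgat1 (r = 0.89), Ceacam10 (r = 0.87), Arrb2 (r = 0.87) and Mogat2 (r = 0.87), followed by Crispld2 (0.85), Asprv1 (0.83) and Tbc1d8 (0.83), out of 12765 genes compared. These are descriptions over libraries that share their groups, cultures and depth. Among the 10 themselves, deviations from the group means ran together for S100a8 with Camp (r = 0.92) and Ngp (0.89) and for Ltf with Lcn2 (0.86). Chil3 and Mmp8 had low r to both Ltf and S100a8, of 0.028 and 0.11 to Ltf and of -0.065 and 0.029 to S100a8. Their r to each other was 0.43, and that of Mmp8 to Mmp9 was 0.47.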

How the data were processed

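RNA-seq of 35 libraries, 5 in each of 7 groups, was used. The authors deposited reads counted per gene, as whole-number counts without normalization for 49671 genes. The submitters' processing notes name STAR 2.7.0d, HTSeq 0.11.2, DESeq2 and the mm10 build, and libraries were stranded total RNA read in pairs. The labels and the study's methods differ on read length and on the number of transductions per group (5 libraries were deposited for each), and no step of the counting was repeated. Total counts ran from 31559914 to 75810659 per library.

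Tests were run with edgeR 4.0.16 in R 4.3.3. Genes were kept by filterByExpr with the groups (17166 genes, 99.96% of counts), libraries were TMM-scaled, and edgeR's quasi-likelihood fit gave each group its mean over all 35 libraries. Benjamini-Hochberg adjustment ran over all tested genes of each comparison, with a threshold of 0.05, and the standard error is the absolute log2 fold change divided by the square root of F. For a symbol carried by more than 1 row (Itgam) the row with more counts was used. The 10 genes and the gene lists were chosen with earlier results of these data known. Genes were named by rule: all 10, all listed granulocyte transcription factors and partners, the 3 largest rises and falls past the threshold among the other late neutrophil genes (mean of at least 1 CPM), at most 2 of the most abundant genes of other lists, and the 8 genes with the highest Pearson r to the 10. Exceptions, chosen after their values were seen, are Cd3e and Cd79a, given because they define lymphoid cells. G-NHX9-midi against G-NHX9-8FA and the difference of differences were added after the data were seen. Positions are from GENCODE M21 and upstream sequences from RefSeq, both on GRCm38.

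Alternatives were RLE scaling, library totals without scaling, no filter, a mean of at least 1 CPM, DESeq2 1.42.0, a fit to the compared groups alone, a covariate scored from sex-linked transcripts, a block by replicate number, and each library left out in turn. Whether replicate numbers, which come from the labels, pair libraries was checked on deviations from the group means. Same-numbered libraries had a mean r of 0.23 (105 pairs) and others of -0.057 (420 pairs), and every pair was over 0.1 between Empty and G-NHX9, G-NHX9-midi-21FGAA and G-NHX9-DDNA, and between G-NHX9 and G-NHX9-21FGAA and G-NHX9-DDNA. Numbers are said to pair libraries in this sense only. In these comparisons 5, 6, 4, 8 and 4 of the 10 libraries, in that order, correlated best with their own number. Ages differed between Empty and G-NHX9 for replicates 1, 4 and 5. All 70 pairs of libraries within groups differed beyond counting noise. On simulated counts with 200 changed genes, the test of G-NHX9 against Empty recovered 75% of 2-fold and 98% of 4-fold changes.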

Additional observations from a re-analysis of the deposited data

Results flagged for a closer look

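In 1 Empty library Camp stood apart: replicate 2 had 77.2 CPM and the other 4 had 142 to 161 CPM, so that the gap was 0.774 of the group's whole range. Chil3 in replicate 5 of G-NHX9-21FGAA was at 4614 CPM against 6612 to 7238 CPM in the other 4, a gap of 0.761 of the range. Both exceed Dixon's critical value of 0.71 for 5 libraries, over 77 groups of 5 values examined, of which chance flags about 1 in 20. Empty replicate 2 was also the lowest Empty library for Ltf, Ngp, S100a8, S100a9 and Cd177 and the highest for Chil3, at 16022 CPM.

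For 4 of the 10 genes the effect of the 21FGAA replacements in the shortened fusion, minus that in the intact one, passed edgeR's test of this difference. Over all tested genes 7.43% were higher and 5.2% lower. It was 0.99 for Ltf, 1.03 for Mmp8, -2.38 for Mmp9 and -1.23 for S100a9 on the log2 scale. The adjusted p was 0.046 for Ltf, 0.028 for Mmp8, 0.0016 for Mmp9 and 0.015 for S100a9. The calls of Mmp9 and S100a9 held without each library in turn. That of Ltf was lost without any 1 of 14 libraries and that of Mmp8 without any 1 of 7. No explanation of these differences was tested.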

How the results depend on the processing

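Of 2440 recomputed log2 fold changes of the 10 genes, 2281 kept their side of the threshold, 88 lost the threshold and 71 gained it. Among values called in the main or the alternative fit, 0 changed sign. Sign changes of values called in neither fit were not counted. A fit to the compared groups alone called 4 genes in G-NHX9, 1 in G-NHX9-midi-21FGAA and 7 in G-NHX9-DDNA against Empty, 3 between G-NHX9-midi and G-NHX9-8FA and 2 in the difference of differences, where the fit to all libraries called 2, 2, 4, 5 and 4. Library totals without scaling called 1 gene in G-NHX9-midi-21FGAA against Empty, and so did no filter: Chil3 was lost. The cause was not tested. Leaving out single libraries gave, against Empty, 2 to 3 calls in G-NHX9, 7 to 7 in G-NHX9-8FA, 7 to 8 in G-NHX9-midi, 1 to 2 in G-NHX9-21FGAA, 1 to 3 in G-NHX9-midi-21FGAA and 2 to 5 in G-NHX9-DDNA. Against G-NHX9 it gave 5 to 7 in G-NHX9-8FA, 4 to 7 in G-NHX9-midi, 2 to 3 in G-NHX9-21FGAA and 5 to 7 in G-NHX9-DDNA, and then 6 to 8 between G-NHX9-midi-21FGAA and G-NHX9-midi, 1 to 6 between G-NHX9-midi and G-NHX9-8FA and 2 to 5 in the difference of differences. Calls gained against Empty without single libraries were those of Chil3 in G-NHX9-21FGAA, Mmp9 in G-NHX9-midi-21FGAA, Cd177 in G-NHX9-midi, S100a9 in G-NHX9-DDNA and Mmp8 in G-NHX9, the last without its replicate 1 (adjusted p = 0.044), from mice of 11 weeks.

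Under a block by replicate number, 8 genes were called in G-NHX9-8FA against Empty (Mmp8, -0.53, added) and 7 between G-NHX9-midi-21FGAA and G-NHX9-midi (Lcn2, -0.42, added). By the rule of every r over 0.1 the numbers pair the libraries of neither comparison. Yet 8 and 7 of their 10 libraries correlated best with their own number, against 4 to 8 in the comparisons that met the rule. Beside these and the Mmp8, Mmp9, S100a8 and Lcn2 calls given with their results, the block changed no other call. Over all genes, G-NHX9-midi against G-NHX9-8FA had 729 calls, 1314 with the block and 1192 with the sex-linked score, and G-NHX9-8FA against G-NHX9 had 2484, 3952 with the block and 1559 in a fit to those groups alone. On unscaled totals, all genes had a median log2 fold change against Empty of 0.077 to 0.19 (-0.020 to 0.030 with TMM), and 58.5% to 83.1% of calls were higher (50.4% to 57.3% with TMM). For G-NHX9-8FA against G-NHX9 the share was 19.97% (44.4%), with a median of -0.12, and for G-NHX9-midi against G-NHX9-8FA 59.1% (35.5%). Depth limited none of the 10 genes, and 5 libraries a group limit the smaller differences.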
